A study of Homo sapiens with 2 samples.

Results

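The let-7 family is a set of microRNAs (miRNAs) that share a seed, the stretch of bases near the 5′ end that pairs with target messenger RNAs. It was taken here as the 9 guide strands hsa-let-7a-5p, hsa-let-7b-5p, hsa-let-7c-5p, hsa-let-7d-5p, hsa-let-7e-5p, hsa-let-7f-5p, hsa-let-7g-5p, hsa-let-7i-5p and hsa-miR-98-5p. They were chosen by name, from rows whose hairpin name starts with let-7 or is mir-98, and make up 9 of the 1497 mature miRNAs listed. Their 12 hairpins, of 1095 listed, also gave rows for 11 other strands, the 3p passenger strands, which were used to tell genomic copies apart. Small RNA sequencing was done on A375 cells, an established human melanoma line. Cells were seeded in 10 cm dishes, given DMSO, the solvent used as vehicle, after 24 h and collected 48 h later. There was 1 group of 2 libraries, called independent in the labels with nothing more on their origin, so no treatment was compared and the spread between them may be technical. Replicate 1 held 10816826 read assignments and replicate 2 held 15428446. Values are RPM, reads per 1000000 read assignments, given for replicate 1 and then replicate 2, or as mean ± SD (n = 2). The prefix hsa-, for human, is mostly left out.

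In animals, let-7 guides are loaded into Argonaute proteins and lower the output of messenger RNAs with matching sites, among them RAS genes, HMGA2, MYC and LIN28 itself. They accumulate as cells differentiate and are low in embryonic stem cells and in many tumours. Each is cut from a hairpin whose 5p arm gives the guide and whose 3p arm gives the passenger. The LIN28 proteins bind the hairpin loop, in part through the letters GGAG, and block maturation. Neither LIN28 nor any target was measured by this assay.

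The guides are shown with the seed, bases 2 to 8, in capitals, because all 9 carry the same one and differ only outside it (RefSeq, GRCh38.p14).
let-7a-5p: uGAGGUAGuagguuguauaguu
let-7f-5p: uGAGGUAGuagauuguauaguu
let-7i-5p: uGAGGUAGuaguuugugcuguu
let-7g-5p: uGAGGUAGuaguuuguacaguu
miR-98-5p: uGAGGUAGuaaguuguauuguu
let-7e-5p: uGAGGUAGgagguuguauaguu
let-7b-5p: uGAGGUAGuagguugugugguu
let-7d-5p: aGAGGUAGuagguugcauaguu
let-7c-5p: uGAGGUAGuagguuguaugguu

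All 9 guides are 22 bases long, end in UU and differ at 8 of the 22 positions. Counted from 1 at the 5′ end, the changes from let-7a-5p are A19G in let-7c-5p, U9G in let-7e-5p and G12A in let-7f-5p, 1 base each. They are A17G and A19G in let-7b-5p, U1A and U16C in let-7d-5p, G12U and U18C in let-7g-5p, and G11A and A19U in miR-98-5p. Let-7i-5p is the farthest from let-7a-5p, with G12U, A17G, U18C and A19U. Of the 36 pairs of guides, 4 differ by 1 base and 10 by 2. Let-7d-5p starts with A and the other 8 with U, the first base of 43.7% of the 300 miRNAs with a RefSeq sequence among the 335 that reached 10 RPM in both libraries.

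Both libraries held all 9 guides at no less than 10 RPM, a level that 22.4% of the 1497 mature miRNAs reached, and 7 of 9 were at 1000 RPM or more in both, against 4.07% of all. Together they held 74607.5 RPM in replicate 1 and 69951.0 RPM in replicate 2, or 807016 and 1079235 reads. That was 9.62% and 8.94% of the RPM after each mature name was reduced to its highest hairpin row. Let-7a-5p alone made up 55.5% and 60.6% of the family. Let-7a-5p and let-7f-5p together made up 76.4% ± 1.67, and the other 7 guides 23.6% ± 1.67.

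The guide hsa-let-7a-5p, encoded by 3 hairpins, had 41386 and 42400 RPM and ranked 6 among all mature miRNAs by mean. From 2 hairpins, hsa-let-7f-5p had 14748 and 11885 RPM, and hsa-let-7i-5p, from 1, had 6620 and 5235 RPM. The level of hsa-let-7g-5p was 4560 and 3670 RPM. Within the family the order a, f, i, g was thus the same in both libraries, and replicate 1 was the higher library for the last 3 of them.

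The guide hsa-miR-98-5p had 2747 and 2625 RPM. That of hsa-let-7e-5p was 2171 and 2113 RPM. For hsa-let-7b-5p it was 1488 and 1265 RPM. By mean, miR-98-5p was 1.25-fold above let-7e-5p, the smallest step between neighbours, and let-7e-5p 1.56-fold above let-7b-5p.

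At 772 and 654 RPM came hsa-let-7d-5p. Then hsa-let-7c-5p was the lowest guide by a wide step, with 115 and 104 RPM, or 1246 and 1606 reads. It stood 6.50-fold below let-7d-5p and 382-fold below let-7a-5p, from which it differs by 1 base. It had 0.262% of the let-7a-5p level, and whether misread let-7a-5p reads entered its row was not tested.

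The 9 guides kept 1 order in both libraries, and for all 8 pairs of neighbours the ranges of mean ± SD did not overlap. The closest of these were let-7i-5p over let-7g-5p, where the lower end of the range for let-7i-5p was 4948 RPM and the upper end for let-7g-5p was 4745 RPM. With 2 libraries no exact permutation test of a pair can reach p = 0.05, so this order is a description. RPM of different miRNAs also carry the sequence preferences of adapter ligation, which were not measured.

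**Figure D1:**
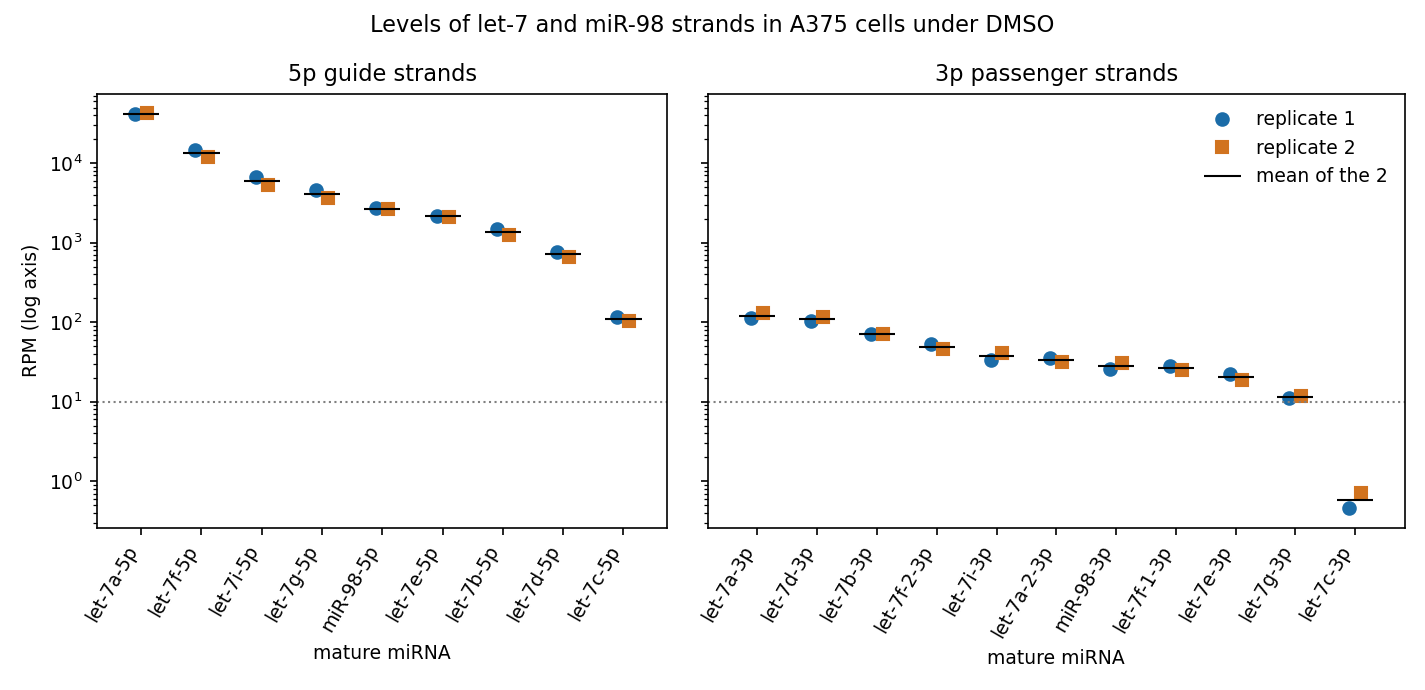
RPM (log axis) of the 9 guide strands (left) and the 11 passenger strands (right) in replicate 1 (circles) and replicate 2 (squares), with black lines at the mean of both and a dotted line at 10 RPM. Guides run from let-7a-5p (41386 and 42400 RPM) to let-7c-5p (115 and 104 RPM), and only let-7c-3p among the passengers lies below 10 RPM.

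**Figure D2:**
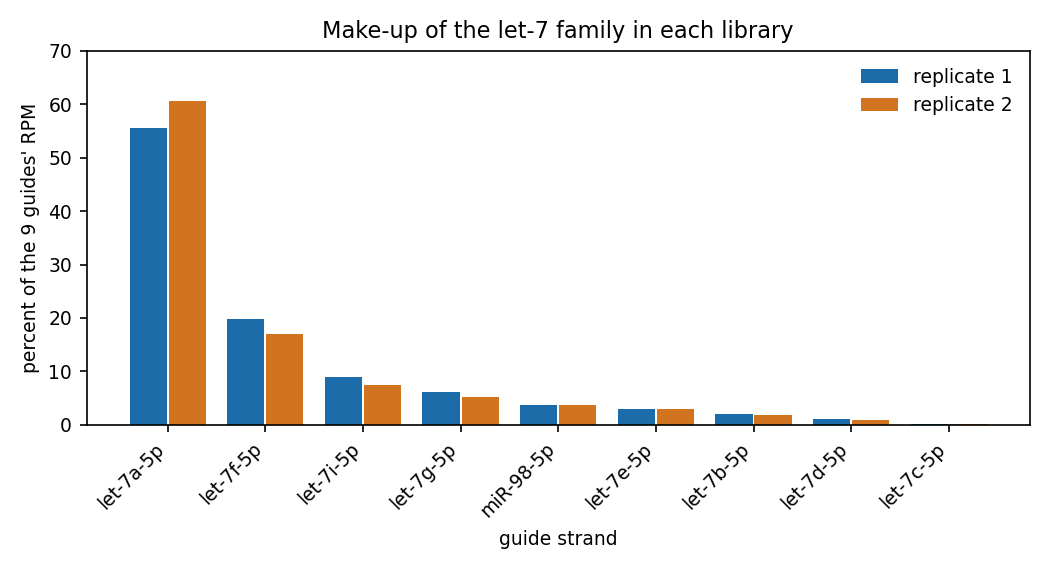
Percent of the summed RPM of the 9 guides held by each guide, as bars for replicate 1 and replicate 2. Let-7a-5p holds 55.5% and 60.6%, and let-7f-5p 19.8% and 17.0%.

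The passenger strands were far lower, at 499 and 521 RPM in sum, or 0.702% ± 0.0533 of guide and passenger RPM together. Of the 11, 10 reached 10 RPM in both libraries, against 25.7% of all names ending in -3p, and 2 reached 100 RPM. These 2 were let-7a-3p, shared by hairpins let-7a-1 and let-7a-3, with 113 and 129 RPM, and let-7d-3p with 105 and 116 RPM. Let-7b-3p followed with 71.4 and 70.3 RPM. The order of the passengers did not follow that of the guides: let-7d gave the next to lowest guide and the next to highest passenger.

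Let-7f-2-3p had 52.8 and 45.4 RPM, let-7i-3p 33.9 and 41.4 RPM and let-7a-2-3p 35.2 and 32.0 RPM. MiR-98-3p had 25.8 and 30.6 RPM, let-7f-1-3p 28.0 and 25.4 RPM and let-7e-3p 22.1 and 18.7 RPM. Several of these ranges crossed: let-7i-3p was below let-7a-2-3p in replicate 1 and above it in replicate 2, and miR-98-3p changed places with let-7f-1-3p in the same way. Let-7g-3p averaged 11.4 ± 0.562 RPM. Let-7c-3p had 5 and 11 reads, or 0.462 and 0.713 RPM.

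With 1 RPM added to each strand, all 12 hairpins had the 5p strand more than 2-fold above the 3p strand in both libraries. That was so for 58.4% of the 137 hairpins with both strands listed and a summed mean of 100 RPM or more. None of the 12 had the 3p strand over 2-fold higher, against 34.3% of the 137. At a limit of 10-fold it was 11 of 12 against 46.7%, and at 100-fold 7 of 12 against 20.4%. With no RPM added let-7c also passed 100-fold, at 249-fold and 146-fold, which made it 8 of 12. The median log2 ratio of 5p to 3p on the RPM + 1 scale was 7.65 over the 12 hairpins. It was 2.68 over all 137 and 6.00 over the 80 of them with the 5p strand over 2-fold higher. In 5 of the 12 hairpins the guide is shared with a copy, so that their own ratio was not resolved, and all 5 were among those past 100-fold. Of the other 7, on the RPM + 1 scale, 7 passed 2-fold, 6 passed 10-fold and 2 passed 100-fold (let-7g and let-7i), the last a share not far from that of all hairpins. The median over these 7 was 6.53.

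Among the 7 hairpins with a guide of their own, let-7d was the most balanced, with log2 ratios of 2.87 and 2.48. Its 5p strand was 7.37-fold and 5.63-fold above the 3p strand, whose share of the reads had 95% exact binomial intervals of 11.3% to 12.6% in replicate 1 and 14.4% to 15.7% in replicate 2. Let-7b came next, with a 3p strand of 4.58% (4.27% to 4.90%) and 5.26% (4.96% to 5.57%). In both hairpins the 3p share was higher in replicate 2, and for let-7d and let-7b the intervals of the libraries did not overlap. The same held for let-7i (0.459% to 0.565% and 0.724% to 0.847%). For mir-98 it held narrowly (0.825% to 1.046% and 1.051% to 1.260%). These intervals cover counting error only, since reads copied by PCR are not independent molecules.

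The 3p strand was a much smaller part of the other 5 hairpins. It held 0.930% and 1.15% in mir-98, 1.01% and 0.876% in let-7e, and 0.510% and 0.784% in let-7i. Its share was smallest in let-7g, with 0.241% (0.199% to 0.288%) and 0.320% (0.276% to 0.370%). In let-7c it held 0.400% (0.130% to 0.930%) and 0.680% (0.340% to 1.21%), a wide interval that reflects its few reads. The intervals of let-7g and let-7c overlapped in both libraries, so their order was not resolved. Let-7i changed most between libraries, with log2 ratios of 7.57 in replicate 1 and 6.95 in replicate 2, and the median absolute change was 0.37 over these 7 hairpins and 0.28 over all 137.

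**Figure D3:**
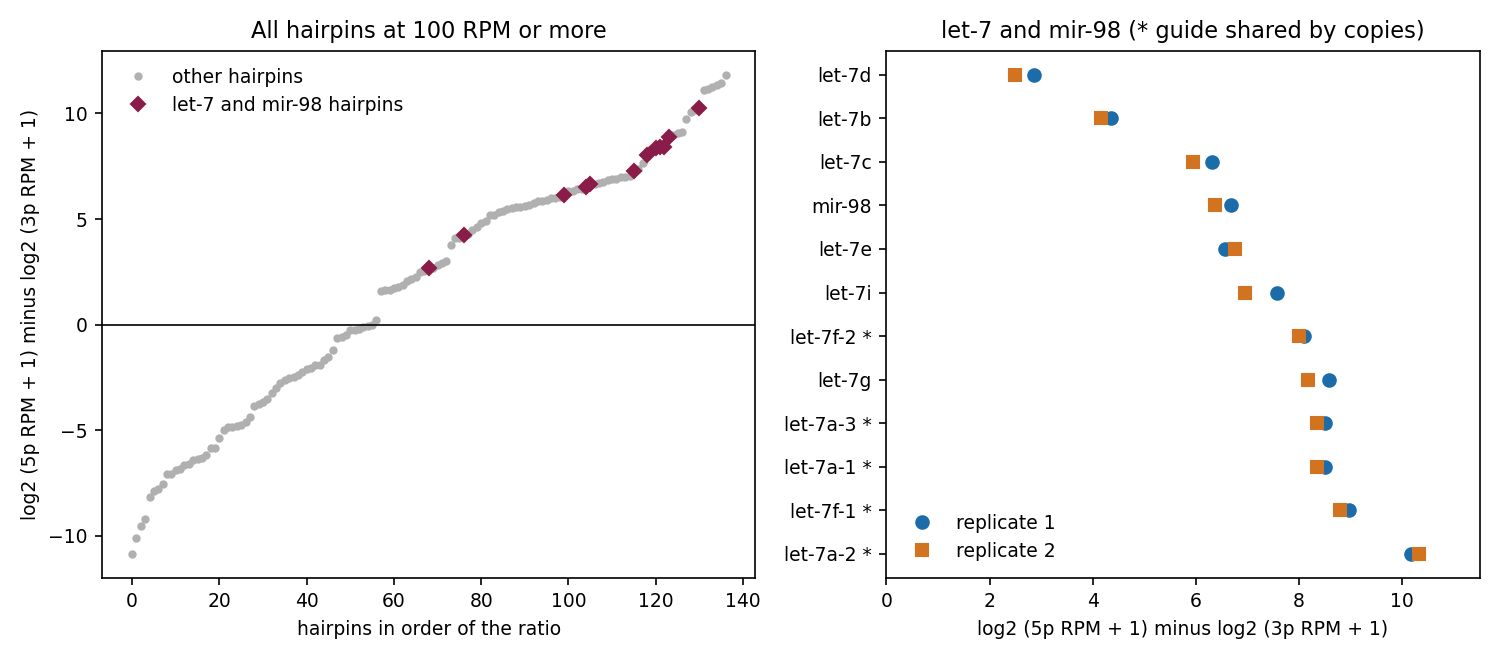
Left, log2 ratio of 5p to 3p RPM (1 RPM added to each) for 137 hairpins in rank order, mean of both libraries, with let-7 and mir-98 hairpins as diamonds. Right, the same ratio for the 12 let-7 and mir-98 hairpins in replicate 1 (circles) and replicate 2 (squares), where an asterisk marks a guide shared by copies. All 12 lie above 0, and let-7d (2.87 and 2.48) is the lowest.

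Which copy gives the abundant guides was examined next. The mature let-7a-5p is identical in let-7a-1, let-7a-2 and let-7a-3, and let-7f-5p in let-7f-1 and let-7f-2, and the rows of such copies were nearly equal. For let-7a-5p they held 447310 reads in replicate 1 at let-7a-1, 447668 at let-7a-2 and 446898 at let-7a-3. The gap between highest and lowest was 770 reads in replicate 1 and 1005 in replicate 2, or 0.172% and 0.154% of the highest. For let-7f-5p, let-7f-2 exceeded let-7f-1 by 2407 and 2655 reads, or 1.51% and 1.45%. The same copy was the highest in both libraries for each guide.

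The guide is shown in lower case with the 8 bases that follow it in each hairpin in capitals, since these are the first bases by which longer reads of the copies could differ (RefSeq, GRCh38.p14, 5′ to 3′ on the strand of the gene).
let-7a-1 (chr9:94175962-94175991, plus): ugagguaguagguuguauaguuUUAGGGUC
let-7a-2 (chr11:122146560-122146589, minus): ugagguaguagguuguauaguuUAGAAUUA
let-7a-3 (chr22:46112752-46112781, plus): ugagguaguagguuguauaguuUGGGGCUC
let-7f-1 (chr9:94176353-94176382, plus): ugagguaguagauuguauaguuGUGGGGUA
let-7f-2 (chrX:53557238-53557267, minus): ugagguaguagauuguauaguuUUAGGGUC

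The first base after the guide is U in all 3 let-7a copies, where the rows differed by under 0.2%. In the let-7f copies, where the rows differed by about 1.5%, it is G in let-7f-1 and U in let-7f-2. Read lengths are not part of the deposited table, so whether longer reads make up these gaps was not tested.

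The passenger strands separate some copies. They are shown with bases 2 to 8 in capitals, which differ between let-7a-2-3p and the other two.
let-7a-3p: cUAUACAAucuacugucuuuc
let-7a-2-3p: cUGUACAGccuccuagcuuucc
let-7f-1-3p: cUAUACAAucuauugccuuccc

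Let-7a-2-3p had 381 and 494 reads, against 1227 and 1990 for let-7a-3p from let-7a-1 and let-7a-3. It thus gave 23.7% (95% exact binomial interval 21.6% to 25.9%) and 19.9% (18.3% to 21.5%) of the let-7a passenger reads, an average of 0.279 ± 0.0440 per read of let-7a-3p. The let-7a-3p rows of let-7a-1 and let-7a-3 held the same 1227 reads in replicate 1 and differed by 2 reads in replicate 2, so these 2 loci could not be told apart. For let-7f, let-7f-1-3p had 303 and 392 reads and let-7f-2-3p 571 and 700. Let-7f-1-3p made up 34.7% (31.5% to 37.9%) and 35.9% (33.0% to 38.8%) of them, and the X-linked strand was 1.88-fold and 1.79-fold higher. Passenger reads are a small part of each hairpin's output and decay at their own rates, so these shares do not give the share of the guide from each copy.

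The family lies at 8 loci. On chromosome 9, MIRLET7A1 (94175957 to 94176036), MIRLET7F1 (94176347 to 94176433) and MIRLET7D (94178834 to 94178920) run along the plus strand within an intron of AL158152.2, a long noncoding gene (GENCODE 29, GRCh38), and MIRLET7D also lies within an intron of LINC02603 on the opposite strand. On this cluster let-7d-3p was 3.74-fold and 4.57-fold above let-7f-1-3p, while let-7f-5p was 19.1-fold and 18.2-fold above let-7d-5p. Reads of let-7f-5p also come from the X copy. On chromosome 22, MIRLET7A3 (46112749 to 46112822) and MIRLET7B (46113686 to 46113768) overlap an exon of MIRLET7BHG, and let-7b-3p reached 0.629 and 0.545 of the shared let-7a-3p. MiR-4763, encoded between them, had 4 reads of its 5p strand and 2 of its 3p strand in replicate 1 and none in replicate 2. On chromosome X, MIR98 (53556223 to 53556341) and MIRLET7F2 (53557192 to 53557274) are read from the minus strand, within an intron of HUWE1, a ubiquitin ligase gene, and let-7f-2-3p was 2.05-fold and 1.48-fold above miR-98-3p. MIRLET7G (chromosome 3, 52268278 to 52268361) lies in an intron of WDR82, and MIRLET7I (chromosome 12, 62603686 to 62603769) in an intron of AC048341.1 and on the opposite strand of an exon of LINC01465.

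The other 3 hairpins sit beside relatives of miR-99, miR-100 and miR-125, miRNAs of other seeds. MIRLET7A2 (chromosome 11, 122146522 to 122146593) shares MIR100HG with MIR100 and MIR125B1, MIRLET7E (chromosome 19, 51692786 to 51692864) shares SPACA6 with MIR99B and MIR125A, and MIRLET7C (chromosome 21, 16539828 to 16539911) shares MIR99AHG with MIR99A and MIR125B2. All lie in introns of these genes on the same strand, and those in SPACA6 also overlap an exon of SPACA6P-AS on the opposite strand.

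The let-7 member was the lowest of its chromosome 19 cluster. MiR-99b-5p was 4.57-fold and 6.82-fold above let-7e-5p, and miR-125a-5p 2.72-fold and 3.24-fold above it. The 3p strands stood in the same order, with miR-99b-3p 4.75-fold and 4.47-fold and miR-125a-3p 2.58-fold and 3.27-fold above let-7e-3p. On chromosome 11 the guide of let-7a-2 was shared, but its passenger was lower than its neighbours': miR-100-3p had 1631 and 1940 RPM and miR-125b-1-3p 1194 and 1542 RPM, 46.3-fold and 60.6-fold, and 33.9-fold and 48.2-fold, above let-7a-2-3p.

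The chromosome 21 cluster was low for 2 of its 3 hairpins. Let-7c-5p stood 3.20-fold and 2.25-fold above miR-99a-5p, which had 36.0 and 46.2 RPM, and miR-99a-3p had 21 and 23 reads. MiR-125b-2-3p, from the same host gene and 50325 bases beyond let-7c, had 162 and 136 RPM, against 0.462 and 0.713 RPM for let-7c-3p. Let-7a-2-3p, from the chromosome 11 cluster, was 76.2-fold and 44.9-fold above let-7c-3p, whose reads were 5 and 11.

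**Figure D4:**
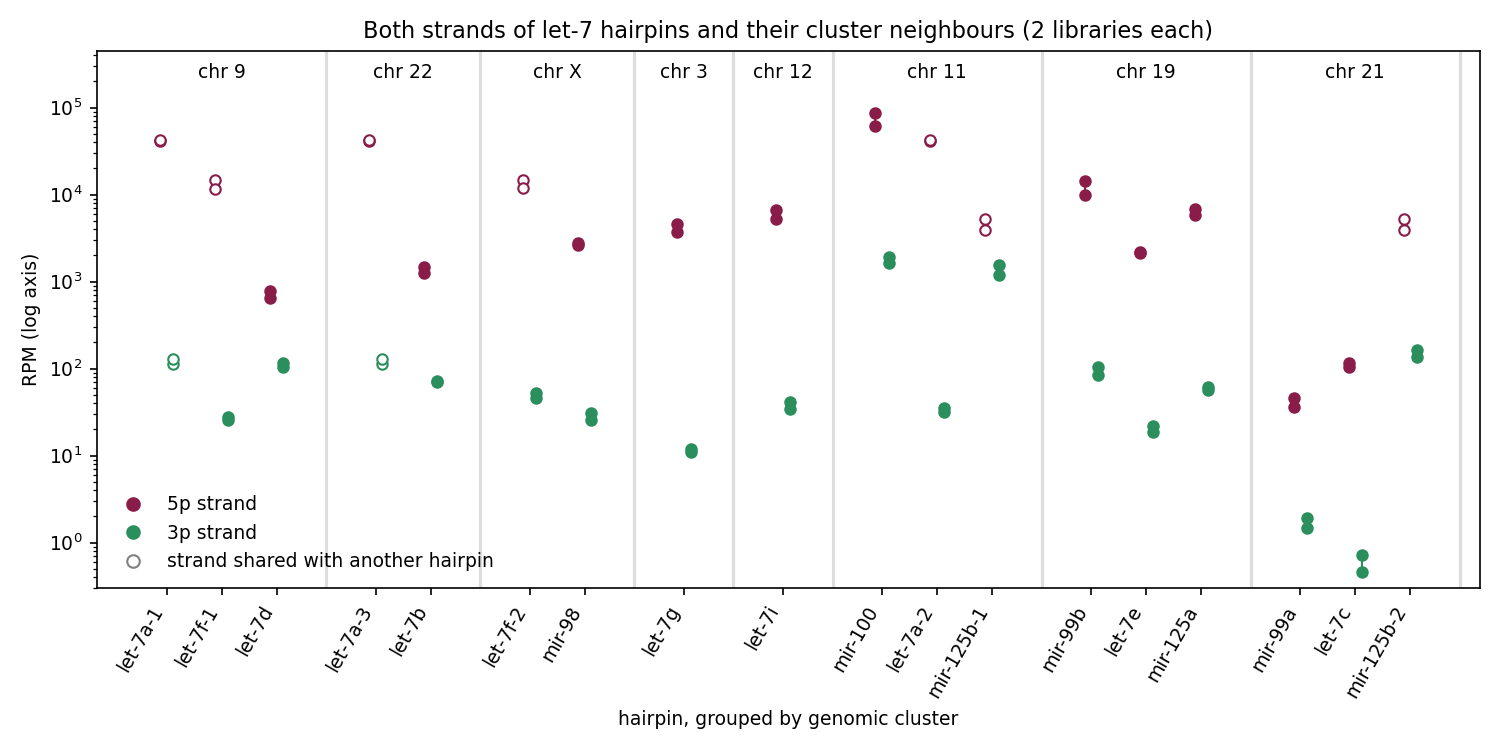
RPM (log axis) of the 5p and 3p strands of the 12 let-7 and mir-98 hairpins and of 6 neighbouring hairpins, grouped by chromosome, with a point for each library joined by a line. Open points mark strands that more than 1 hairpin gives. Let-7c-3p on chromosome 21 (0.462 and 0.713 RPM) is the lowest strand shown, and miR-100-5p on chromosome 11 (61921 and 87643 RPM) the highest.

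The loops were searched for GGAG on the RNA strand, between the end of the 5p strand and the start of the 3p strand, in the 11 member hairpins whose strands are both in the RefSeq table. It occurred in 8 of the 11, against 60 of all 739 hairpins with both strands there (8.12%). Among the 62 hairpins with loops as long as those of the members, 23 to 36 bases, it occurred in 17 (27.4%). The 739 and the 62 both include the 11 members, and so their 8 with the letters. In each of the 8 the letters stood 4 bases before the passenger, and let-7e held them once more. The last 14 bases of the loop are shown for 2 that hold the letters, in capitals, and for the 3 that do not.
let-7a-1 (chr9:94175999-94176012, plus): ccacugGGAGauaa
let-7i (chr12:62603733-62603746, plus): cgcuguGGAGauaa
let-7a-3 (chr22:46112786-46112799, plus): cugcuaugggauaa
let-7b (chr22:46113731-46113744, plus): cccucggaagauaa
mir-98 (chrX:53556263-53556276, minus): caauuagaagauaa

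Of the hairpins without the letters, let-7a-3 carries the most abundant guide, shared with its copies, and the other two gave miR-98-5p at 2686 ± 86.0 RPM and let-7b-5p at 1377 ± 158 RPM. Hairpins with them gave guides from let-7i-5p (5928 ± 980 RPM) to let-7c-5p (110 ± 7.85 RPM), among those with 1 hairpin.

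The difference between the libraries was then set against that of all miRNAs. None of the 9 guides and none of the 11 passengers differed by more than 2-fold in RPM + 1, against 1.73% of the 346 miRNAs averaging at least 10 RPM. With so low a share and so few strands, this count does not set the members apart. Let-7c-3p, at 0.462 and 0.713 RPM, is not among the 346, and the added RPM left it little room to differ. In replicate 2, 8 guides were lower and let-7a-5p was higher, while 59.2% of the 346 were lower in replicate 2. The median log2 difference, replicate 2 minus replicate 1, was -0.23 over the guides and -0.10 over the 346. After both libraries were scaled to the same median ratio, a shift of 0.10, 6 of the 9 guides were lower in replicate 2. Let-7a-5p, miR-98-5p and let-7e-5p were higher there. By construction, this scaling leaves about as many of the miRNAs at 10 RPM in both libraries lower as higher.

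The guides did not move alike. Let-7f-5p, let-7g-5p and let-7i-5p differed by -0.31, -0.31 and -0.34, the largest shifts among the guides. Let-7b-5p, let-7d-5p and let-7c-5p lay between, at -0.23, -0.24 and -0.14. Let-7e-5p and miR-98-5p differed by -0.04 and -0.07, and let-7a-5p by 0.03. As a result the ratio of let-7a-5p to let-7f-5p was 2.81 in replicate 1 and 3.57 in replicate 2, whereas that of let-7i-5p to let-7g-5p was 1.45 and 1.43. The passengers were split, with 6 higher and 5 lower in replicate 2, and the median over them was 0.09. On the RPM + 1 scale their largest difference was that of let-7i-3p at 0.28, while its guide was the one that differed most in the other direction. With no RPM added let-7c-3p differed more, 1.54-fold against 1.22-fold for let-7i-3p, but on 5 and 11 reads. The cluster neighbours miR-100-5p, miR-99b-5p and miR-125b-5p were higher in replicate 2, by 0.50, 0.54 and 0.40. So were miR-99a-5p (0.35), miR-125a-5p (0.21), miR-125b-1-3p (0.37), miR-100-3p (0.25) and miR-125a-3p (0.10). MiR-99b-3p, miR-125b-2-3p and miR-99a-3p differed by -0.33, -0.25 and -0.24, the last on 21 and 23 reads. MiR-4763 had reads in replicate 1 only. The 2 libraries cannot show whether such differences lie between cultures or between library preparations.

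On the recovered reads, Fisher's exact test (two-sided), with Benjamini-Hochberg adjustment over 869 miRNAs, called all 9 guides different between the libraries at an adjusted p under 0.05, against 34.5% of the 869. The smallest margin was that of let-7c-5p, with an adjusted p of 0.025 and 1246 against 1606 reads. With a fold above 2 required as well it called none of the 9, against 4.6% of the 869. The test takes account of counting error alone, and at depths of 8348 reads or more per library for the other 8 guides, a difference of 1.26-fold at most passed it.

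**Figure D5:**
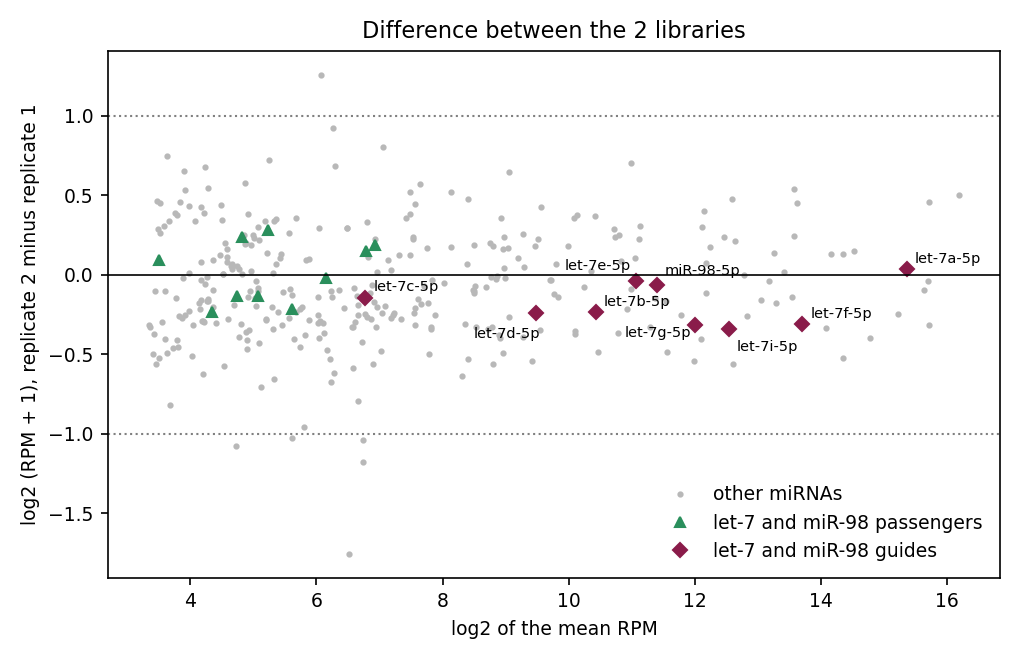
Difference in log2 (RPM + 1), replicate 2 minus replicate 1, against log2 of the mean RPM for 346 miRNAs averaging at least 10 RPM. Guides are diamonds, the 10 passengers at this level triangles, and dotted lines mark 2-fold. The guides lie between -0.34 (let-7i-5p) and 0.03 (let-7a-5p).

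RefSeq lists 11 mature miRNAs with the let-7 seed, the 9 guides, miR-4458 and miR-4500. MiR-4458 had 3 and 6 reads, and miR-4500 was not among the mature miRNAs listed in these data. The miR-196 miRNAs of the HOX clusters carry AGGUAG 1 base nearer the 5′ end. MiR-196a-5p averaged 366 ± 12.7 RPM and miR-196b-5p 102 ± 9.56 RPM, against 110 ± 7.85 RPM for let-7c-5p.

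As a check, 6 of 8 miRNAs listed for melanocytes or melanoma reached 10 RPM in both libraries, against 22.4% of the 1497 listed. The list summed to 89388 and 77146 RPM, of which miR-21-5p alone held 59733 and 47975 RPM. MiR-211-5p, the most specific to melanocytes of these, had 3 and 2 reads, and miR-137 had 6 and 6. Of 18 names listed for liver, red cells, blood, muscle, neurons and epithelium, 13 had a row and 4 were at that level. That was near the 22.4% of all 1497 names. This list summed to 1179 and 1352 RPM, led by miR-9-5p. Its epithelial miR-200b-3p had 26.3 and 31.4 RPM, and miR-141-3p 15.6 and 23.2 RPM. Reads of miR-122-5p, the liver miRNA, numbered 3 and 8, and those of the red cell miRNA miR-451a 1 and 0. Another miRNA of the red cell list, miR-486-5p, had 171 and 200 RPM.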

How the data were processed

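The 2 small RNA libraries of DMSO-treated A375 cells were used. The tools named in the submitters' processing notes were CASAVA 1.8 and cutadapt 1.2.1. An aligner, a miRNA release, a genome build and the handling of reads that match several hairpins were not given in the sources used here. The authors deposited RPM, with decimal commas, for each hairpin and mature strand. Each column sums to 1000000, and 100% of values were whole multiples of the smallest within 0.01 reads, so reads were recovered (1 read was 0.0924 and 0.0648 RPM). The same reads appear to count in every copy of a hairpin. Columns were matched to samples by description, and 0 other columns held values.

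Each mature name took its highest hairpin row, and shares are percentages of that reduced total (77.6% and 78.3% of the columns). Differences used log2(RPM + 1), so those of low strands are understated. Strand ratios used each hairpin's own rows. The Fisher test, an alternative, was tested on simulated data with counting error as the only spread. That does not show how it performs on real libraries, which differ by more. Members, lists and tests were chosen with earlier results of these data known. The named miRNAs were the 9 guides, 11 passengers, cluster neighbours, relatives by seed and the closest miRNA to each guide in level. Of the 20 member strands, 19 had a sequence in RefSeq (GRCh38.p14); let-7f-2-3p was the other. Python 3.11.15, scipy 1.17.1 and GENCODE 29 were used. Intervals and tests cover counting error only.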

Additional observations from a re-analysis of the deposited data

How the results depend on the processing

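The family share of 9.28% became 16.9% with the hairpin rows of each name summed, which appears to count reads of let-7a-5p and let-7f-5p more than once. It was 7.23% of the columns as deposited and 10.3% without miR-100-5p, the most abundant miRNA, and lay between 8.94% and 9.62% in single libraries. The count of guides apart between the libraries, 0 as reported, was 9 by Fisher's exact test at any fold, and 0 with other pseudocounts (0.1 and 10), with a limit of 1.5-fold, after rescaling and with summed rows. The count of hairpins with the 5p strand over 2-fold higher was 12, and 7 of 7 where only guides with 1 hairpin were kept, a smaller set by construction. The ratio of let-7a-2-3p to let-7a-3p, 0.279, was 0.140 with summed rows, since the 2 rows of let-7a-3p are then added, and 0.248 to 0.311 in single libraries. That of let-7f-1-3p to let-7f-2-3p, 0.545, lay between 0.531 and 0.560. The order of the guides was the same with summed rows. Leaving out a library gave no SD, so that neighbours could not be compared by their ranges. With a pseudocount of 10 the log2 strand ratio of 8 of 12 hairpins moved by more than its SD. No paired analysis was possible because there was 1 group. At these depths 10 RPM was 108 and 154 reads, and depth limits let-7c-3p alone among the strands described here as members.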

Other observations

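The passenger strands do not share a seed as the guides do. Of the 10 with a RefSeq sequence, let-7a-3p, let-7b-3p, let-7f-1-3p and miR-98-3p share bases 2 to 8 (UAUACAA) and summed to 239 and 255 RPM. Let-7a-2-3p and let-7g-3p share UGUACAG and summed to 46.2 and 43.8 RPM. Let-7d-3p, let-7i-3p, let-7e-3p and let-7c-3p each had a seed of their own among these 10.

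Over the 2 libraries, the miRNA outside the family closest in log2 (RPM + 1) was miR-22-3p for let-7a-5p (41584 and 35006 RPM), miR-21-3p for let-7f-5p (12438 and 11298 RPM) and miR-204-5p for miR-98-5p (2766 and 2498 RPM). With 2 libraries this is a likeness in level alone.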
